A study of Mus musculus with 10 samples.

Results

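The genes described here are 38 cell cycle and proliferation genes of the mouse, taken by their symbols out of 24421 genes in a count table of pancreas RNA. All 38 symbols are in the table. They were grouped by role: the proliferation marker Mki67; 4 genes of G1 and G1/S control; 6 subunits of the MCM helicase; 3 genes of DNA synthesis; 6 S, G2 and M cyclins and their regulators; 4 mitotic kinases and passenger proteins; 5 genes of the spindle checkpoint and anaphase promotion; and 9 genes of the chromosome, spindle and cytokinesis machinery.

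A cell that commits to division first makes D-type and E-type cyclins, which free E2F factors from the retinoblastoma family and switch on the genes of DNA replication. Later, B-MYB and FOXM1 complexes switch on a second wave of genes for mitosis, among them cyclin B, CDK1, the Aurora and Polo kinases, the spindle checkpoint and the motors and crosslinkers of the spindle. Most of these transcripts are scarce in resting cells, so in a piece of adult pancreas, where acinar cells divide rarely, their level depends on how many cells are cycling and of which type.

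The pieces came from the tail of the pancreas of female mice 12 weeks old. All mice carried the Ptf1aCreER driver, in which an inducible Cre is expressed from the locus of an acinar transcription factor, and the nTnG reporter, whose nuclear fluorescent protein switches where Cre has acted. The 3 WT mice had no floxed allele of the insulin receptor gene Insr (Insrw/w), the 3 Het mice had 1 (Insrw/f) and the 4 KO mice had 2 (Insrf/f). The extraction protocol speaks of 4 mice without a floxed allele; 3 were analysed here. The inducing agent, its timing and the diet are not given in the sources used here. The driver limits deletion to cells that expressed it, and the other cells of the piece keep Insr. In bulk RNA of this kind, fewer cells of a type and less RNA per cell cannot be told apart.

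Each mouse gave 1 library, with 11718559 to 19024351 counts in genes. Insr itself was at 21.0 to 40.5 CPM in WT, 28.2 to 44.2 CPM in Het and 22.7 to 35.4 CPM in KO, where CPM is the count scaled to library size after the trimmed-mean (TMM) scaling of edgeR. The count covers the whole gene and all cells of the piece, so it does not check the deletion. WT-2404 stood apart from the other libraries. Its 15 acinar markers held 12.7% of the gene counts, against 50.5% in WT-1860, 62.2% in WT-2067, 62.4% to 66.2% in Het and 54.6% to 67.7% in KO. The amylase gene Amy2a5, listed among these markers, was at 0 in 7 libraries, every WT library among them. The scaling factor of WT-2404 was 3.53, against 0.596 to 1.56 in the rest, so its CPM values depend on the scaling more than those of any other library. KO-2124 had the highest share of reads outside genes, at 8.71%, and the highest scaling factor of the KO group, at 1.36. Values without WT-2404 or KO-2124 are given beside the counts and medians that they moved.

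Promoters are shown first because the members divide into replication genes and mitotic genes, whose known regulatory sites differ. RefSeq promoters of GRCm38.p6, 300 bases from 250 before to 50 after the start, were matched by symbol for 30 of the 38 genes, giving 32 promoters. They were searched on both strands for the CCAAT box (CCAAT), the cell cycle homology region or CHR (TTTGAA), a site known from late cell cycle genes, and an E2F word (TTTCCCGC, TTTGGCGC, TTTGCCGC or TTTCGCGC). Matches of different motifs, and of the E2F word on opposite strands, may overlap. Of these, 5 are shown as 200 bases that end at the base before the start, 5′ to 3′ on the strand of the gene, with matches in capitals. Mki67, Cdk1 and Cdc20 stand for the late genes and Mcm5 and Mcm6 for the replication genes. They lie at chr7:135716380-135716579 (minus strand), chr10:69352913-69353112 (minus), chr4:118437344-118437543 (minus), chr8:75109309-75109508 (plus) and chr1:128359706-128359905 (minus).
Mki67: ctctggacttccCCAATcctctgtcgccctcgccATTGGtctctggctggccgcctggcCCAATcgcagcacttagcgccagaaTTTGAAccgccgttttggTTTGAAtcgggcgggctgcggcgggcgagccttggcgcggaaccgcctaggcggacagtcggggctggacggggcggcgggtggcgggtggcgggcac
Cdk1: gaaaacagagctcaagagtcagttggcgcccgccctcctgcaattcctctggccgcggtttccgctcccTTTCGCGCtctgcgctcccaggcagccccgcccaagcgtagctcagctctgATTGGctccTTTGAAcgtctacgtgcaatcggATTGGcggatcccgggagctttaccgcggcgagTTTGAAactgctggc
Cdc20: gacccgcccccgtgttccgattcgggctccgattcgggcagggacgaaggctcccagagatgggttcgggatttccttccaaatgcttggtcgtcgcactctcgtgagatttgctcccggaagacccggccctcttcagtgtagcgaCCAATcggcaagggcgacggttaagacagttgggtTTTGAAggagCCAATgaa
Mcm5: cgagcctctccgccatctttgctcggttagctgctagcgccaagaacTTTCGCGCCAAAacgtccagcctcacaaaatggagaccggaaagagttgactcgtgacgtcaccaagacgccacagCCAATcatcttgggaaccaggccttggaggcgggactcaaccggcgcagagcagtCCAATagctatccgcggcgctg
Mcm6: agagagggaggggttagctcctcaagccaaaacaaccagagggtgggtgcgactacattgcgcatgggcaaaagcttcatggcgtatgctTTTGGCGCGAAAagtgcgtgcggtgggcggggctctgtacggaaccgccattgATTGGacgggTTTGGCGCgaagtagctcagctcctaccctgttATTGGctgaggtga

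The Mki67, Cdk1 and Cdc20 promoters each held a CHR together with a CCAAT box, and Mcm5 and Mcm6 held E2F words with CCAAT boxes and no CHR. Among the promoters of Mki67 and of the genes with roles from the S, G2 and M cyclins onward, 15 of 21 held a CHR (71.4%), 18 held a CCAAT box (85.7%) and 1, that of Cdk1, held an E2F word (4.76%). Among those of the G1, MCM and DNA synthesis genes, 1 of 11 held a CHR (9.09%), 8 held a CCAAT box (72.7%) and 4 held an E2F word (36.4%), all 4 of them MCM promoters. Of all 32851 promoters in the RefSeq table, 17.9% held a CHR, 37.4% a CCAAT box, 2.26% an E2F word and 6.95% both a CCAAT box and a CHR. These matches describe letters in this window and were set against no chance model.

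The KO mice were compared with the WT mice to ask how the cell cycle genes stood in mice with both Insr alleles floxed. All 38 genes were lower in KO, with a median log2 fold change of -1.52 and a range from -2.48 for Ccnb1 to -0.28 for Tyms. None passed an adjusted p of 0.05 in edgeR's quasi-likelihood test; the share of all 13688 tested genes that did was 0%, and the smallest adjusted p among the 38 in edgeR was 0.116. Before adjustment, 27 of the 38 were lower at p under 0.05, against 13.9% of all tested genes, and 48.2% of all tested genes had a fold change below 0. Melk, Aurkb, Bub1 and Ttk passed the filter on low counts only through WT libraries; leaving them out, 24 of 34 were lower at p under 0.05 in KO and 21 of 34 in Het. In 7 genes (Mcm4, Mcm6, Pcna, Ccnb1, Foxm1, Cdc20 and Tpx2) every KO mouse was below every WT mouse, against 9.17% of all tested genes. The median over all tested genes was 0.03.

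The Het mice were compared with the same 3 WT libraries to ask how the genes stood with 1 floxed allele. All 38 genes were lower in Het, with a median of -1.60 and a range from -2.34 for Mcm5 to -0.27 for Ccne1, while the median of all tested genes was 0.00. None passed in edgeR (0% of all tested genes, smallest adjusted p among the 38 in edgeR 0.183). Before adjustment 23 were lower at p under 0.05, against 11.6% of all tested genes, and 49.7% of all tested genes had a fold change below 0. The groups were separate in 23 genes, against 13.5% of all tested genes. Aurkb and Bub1, which were tested only through their WT counts, are among the 23. Both comparisons share the WT libraries, so the Het values are no independent repeat of the KO values.

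**Figure D1:**
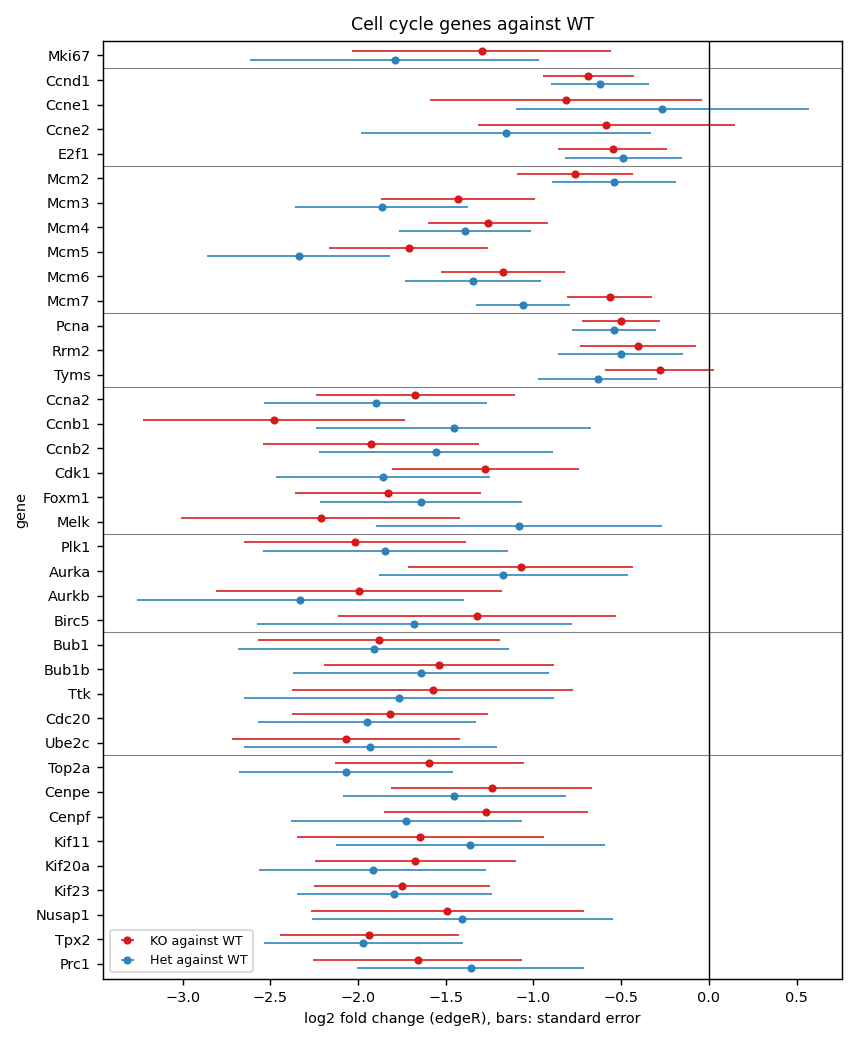
Log2 fold change of each cell cycle gene (horizontal axis) for KO against WT in red and Het against WT in blue, genes ordered by role with lines between roles. Bars are standard errors derived from the test statistic of edgeR. All points lie below 0. By role median the G1 and DNA synthesis genes lie nearest to it, though single genes such as Ccne2 in Het lie further off.

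Single libraries moved these values. WT-2404 was the highest of the 10 libraries for 37 of the 38 genes; the exception was Ccne1, highest in KO-2124. Without WT-2404, 36 of 38 genes were still lower in KO and the median was -0.78, but 6 had an unadjusted p under 0.05, against 5.29% of all tested genes. Het without WT-2404 had 36 genes lower, a median of -0.83 and 7 with an unadjusted p under 0.05, against 3.61% of all tested genes. Without KO-2124, the KO median was -2.14, 34 genes had an unadjusted p under 0.05 (16.4% of all tested genes), and the groups were separate in 26 (15.4% of all tested genes). The KO medians by role then ran from -0.57 for DNA synthesis to -2.87 for the mitotic kinases and passenger proteins. With KO-2124 those 2 medians were -0.40 and -1.66. Without it the medians of the other roles were -1.15 for G1 and G1/S control, -1.45 for MCM, -2.50 for the cyclins, -2.26 for the checkpoint and -2.25 for the spindle machinery. Genes at an unadjusted p under 0.05 in edgeR were then 2 of 4 for G1, 6 of 6 for MCM and 2 of 3 for DNA synthesis. They were 6 of 6 for the cyclins, 4 of 4 for the kinases, 4 of 5 for the checkpoint and 9 of 9 for the spindle machinery. With neither library, 37 genes were lower in KO, the median was -1.31 and 20 had an unadjusted p under 0.05, against 9.01% of all tested genes. Without WT-2067, 16 of the 38 passed an adjusted p of 0.05 in edgeR for KO (7.42% of all tested genes) and 8 for Het (4.01%). WT-2067 had 62.2% of its gene counts in acinar markers, and the WT libraries then left had 12.7% and 50.5%. The part of this in those calls was not tested. DESeq2 called 14 lower in KO (5.22% of all tested genes) and 6 lower in Het (1.38%). All counts in this paragraph were taken over the 38 genes, with Melk, Aurkb, Bub1 and Ttk, which passed the filter only through WT libraries. Melk and Aurkb are among the 34 without KO-2124, and Melk, Aurkb and Bub1 are among the 26. Their p and their separation support nothing. These counts were not made without the 4 genes.

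**Figure D2:**
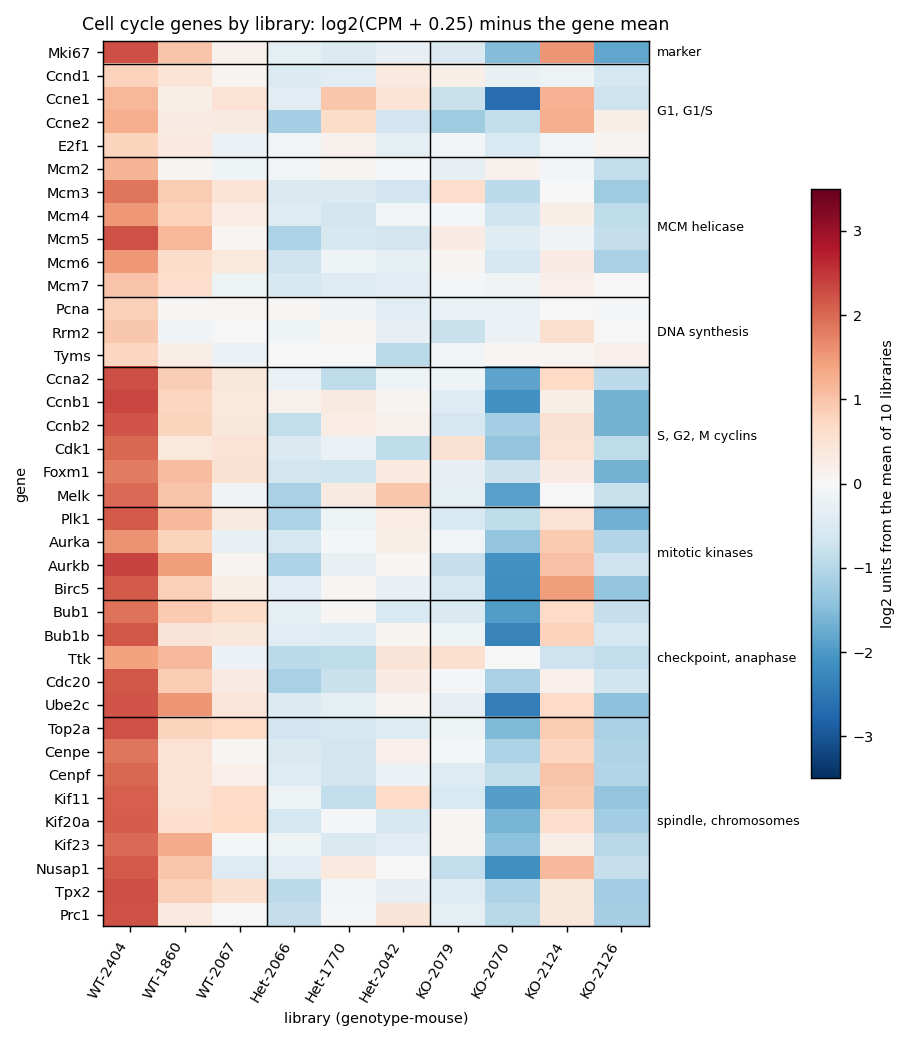
Each cell shows log2(CPM + 0.25) of a gene (row, grouped by role) in a library (column) minus that gene's mean over the 10 libraries, red above and blue below. The WT-2404 column is red throughout, KO-2070 and KO-2126 are the bluest for most mitotic genes, and KO-2124 is redder than the other KO libraries.

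In what follows the mice are always listed in the order WT-2404, WT-1860, WT-2067, then Het-2066, Het-1770, Het-2042, then KO-2079, KO-2070, KO-2124, KO-2126. CPM values are not divided by gene length, so they compare mice and not genes. A CPM of 3 counts, the most that a count of 0 allows, ran from 0.0501 in WT-2404 to 0.395 in KO-2070; these limits cover counting error only. Each adjusted p quoted for a gene is from edgeR's quasi-likelihood test with Benjamini-Hochberg adjustment over all tested genes. The standard error (SE) of a fold change was derived from the fold change and the statistic of that test, and is not a separate estimate.

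Mki67 encodes Ki-67, the nuclear protein that coats mitotic chromosomes and marks cycling cells. It was at 53.8, 22.1 and 12.1 CPM in WT, at 8.77, 7.83 and 8.96 CPM in Het and at 7.60, 3.69, 32.4 and 2.93 CPM in KO. All Het mice lay below all WT mice, and KO overlapped WT through KO-2124 alone. The log2 fold change was -1.30 ± 0.74 (SE) for KO (mean 11.7 ± 14.0 CPM (SD, n = 4), adjusted p in edgeR 0.301). For Het it was -1.79 ± 0.83 (mean 8.52 ± 0.61 CPM (SD, n = 3), adjusted p in edgeR 0.259), against a WT mean of 29.3 ± 21.8 CPM (SD, n = 3). Without KO-2124 the KO value was -2.60. Without WT-2404 the values were -0.48 for KO and -0.99 for Het.

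The genes of G1 and G1/S control differed least from WT together with those of DNA synthesis, with role medians of -0.64 in KO and -0.55 in Het (-0.34 and -0.29 without WT-2404). Ccnd1 encodes cyclin D1, the partner of CDK4 and CDK6 that answers to growth factors. It was at 61.1, 48.6 and 37.5 CPM in WT, at 25.1, 26.8 and 43.9 CPM in Het and at 39.9, 28.8, 30.7 and 22.5 CPM in KO. KO-2079 and Het-2042 reached above WT-2067, and the other Het and KO mice lay below all WT mice. The log2 fold change was -0.69 ± 0.26 in KO and -0.62 ± 0.28 in Het, with unadjusted p in edgeR of 0.0202 and 0.0457. Ccnd1 was the sole gene of this role with p under 0.05 in each, against 13.9% and 11.6% of all tested genes. Without WT-2404 no gene of the role had p under 0.05. Ccne1, encoding the cyclin E1 that activates CDK2 at the start of S phase, was at 3.29, 1.59 and 2.02 CPM in WT, at 0.965, 2.89 and 1.96 CPM in Het and at 0.680, 0, 3.46 and 0.707 CPM in KO. Its highest and lowest values were both in KO mice, and the groups overlapped throughout. Ccne2, encoding the second E cyclin, was at 2.61, 1.20 and 1.22 CPM in WT, at 0.263, 1.58 and 0.491 CPM in Het and at 0.247, 0.395, 2.58 and 1.11 CPM in KO. Here too KO-2124 came close to WT-2404, and the other KO mice were below all WT mice. E2f1, the activating E2F factor, was at 5.34, 3.83 and 2.57 CPM in WT, at 2.81, 3.35 and 2.33 CPM in Het and at 2.78, 1.98, 2.76 and 3.23 CPM in KO. Het and KO mice overlapped WT-2067, and the log2 fold changes were -0.55 ± 0.31 and -0.49 ± 0.33 for KO and Het.

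The MCM genes encode the 6 subunits of the ring that unwinds DNA ahead of the replication fork, and all 6 were lower at an unadjusted p under 0.05 in KO and 5 in Het, the exception being Mcm2, against 13.9% and 11.6% of all tested genes. The role medians were -1.22 and -1.37. Without WT-2404, 2 of 6 were under 0.05 in KO and 5 in Het, with medians of -0.78 and -0.92, against 5.29% and 3.61% of all tested genes. Mcm6 was at 25.4, 13.7 and 11.1 CPM in WT, at 5.17, 7.83 and 6.87 CPM in Het and at 9.21, 5.66, 10.6 and 3.84 CPM in KO. Every Het and every KO mouse lay below every WT mouse, KO-2124 and WT-2067 being the closest pair. The log2 fold change was -1.17 ± 0.35 in KO and -1.34 ± 0.39 in Het, with adjusted p in edgeR of 0.121 and 0.183. Mcm2 was at 13.1, 6.01 and 5.08 CPM in WT, at 5.26, 6.06 and 5.52 CPM in Het and at 4.64, 6.32, 5.30 and 3.03 CPM in KO. WT-1860 and WT-2067 lay within the range of the other groups, and WT-2404 alone stood above it. The largest difference of this role was that of Mcm5, at -1.71 ± 0.45 in KO and -2.34 ± 0.52 in Het. Mcm3 (-1.43 and -1.87) and Mcm4 (-1.26 and -1.39) lay between, and Mcm7 was at -0.56 in KO and -1.06 in Het.

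The 3 genes of DNA synthesis were closest to WT, with role medians of -0.40 and -0.54 (0.03 and -0.21 without WT-2404). Pcna encodes the sliding clamp of the replication polymerases, which also serves DNA repair. It was at 20.7, 11.8 and 12.1 CPM in WT, at 11.8, 10.5 and 8.59 CPM in Het and at 9.64, 9.74, 11.6 and 11.2 CPM in KO. The Het and KO mice lay below all WT mice, though WT-1860 and Het-2066 nearly met, and without WT-2404 all 9 remaining mice were within 1.41-fold of each other. The log2 fold change was -0.50 ± 0.22 in KO and -0.54 ± 0.24 in Het, with unadjusted p of 0.0420 and 0.0416. Rrm2, the regulated subunit of ribonucleotide reductase, was at 13.7, 6.40 and 7.10 CPM in WT, at 6.31, 7.36 and 5.77 CPM in Het and at 4.02, 6.06, 10.5 and 6.97 CPM in KO. The groups overlapped, and without WT-2404 its KO difference was 0.04 on the log2 scale. Tyms, which makes thymidylate, differed by -0.28 ± 0.31 in KO and by -0.63 ± 0.34 in Het.

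Larger differences were seen for the cyclins of S phase and mitosis and their regulators, with role medians of -1.88 in KO and -1.60 in Het; 6 of 6 had an unadjusted p under 0.05 in KO and 4 of 6 in Het, against 13.9% and 11.6% of all tested genes. Melk is among the 6 in KO but was tested only through its WT counts, so its p supports nothing. Without WT-2404 the counts were 1 and 0 of 6, against 5.29% and 3.61% of all tested genes, and the medians -1.23 and -0.89. Ccna2, encoding the cyclin A2 of S and G2 phase, was at 17.4, 6.50 and 4.59 CPM in WT, at 2.89, 1.77 and 3.01 CPM in Het and at 3.09, 0.790, 5.81 and 1.72 CPM in KO. KO-2124 lay above WT-2067, and the other Het and KO mice were below all WT mice. Ccnb1 encodes cyclin B1, whose complex with CDK1 drives entry into mitosis. It was at 5.31, 1.59 and 1.16 CPM in WT, at 0.965, 1.12 and 0.920 CPM in Het and at 0.556, 0, 1.01 and 0.101 CPM in KO. All Het and KO mice were below all WT mice, though WT-2067 and Het-1770 nearly met. Ccnb1 had the largest KO difference of the 38 genes, -2.48 ± 0.75 (adjusted p in edgeR 0.121), while the Het difference was -1.46 ± 0.78 (adjusted p in edgeR 0.302). The gene had 0 counts in KO-2070.

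Cdk1, the kinase that cyclins A2 and B1 activate, was at 10.6, 3.28 and 3.61 CPM in WT, at 1.67, 2.05 and 1.23 CPM in Het and at 3.71, 0.790, 3.64 and 1.21 CPM in KO. KO-2079 and KO-2124 were level with the lower WT mice, and KO-2070 and KO-2126 were far below. Foxm1, the transcription factor of the mitotic wave, was at 5.91, 3.44 and 2.27 CPM in WT, at 0.877, 0.839 and 1.96 CPM in Het and at 1.17, 0.790, 1.89 and 0.303 CPM in KO. All Het and KO mice were below all WT mice, with log2 fold changes of -1.83 ± 0.53 in KO and -1.64 ± 0.58 in Het. Ccnb2, the other mitotic B cyclin, was at -1.93 and -1.55, and Melk, a kinase of dividing cells, at -2.21 and -1.08.

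**Figure D3:**
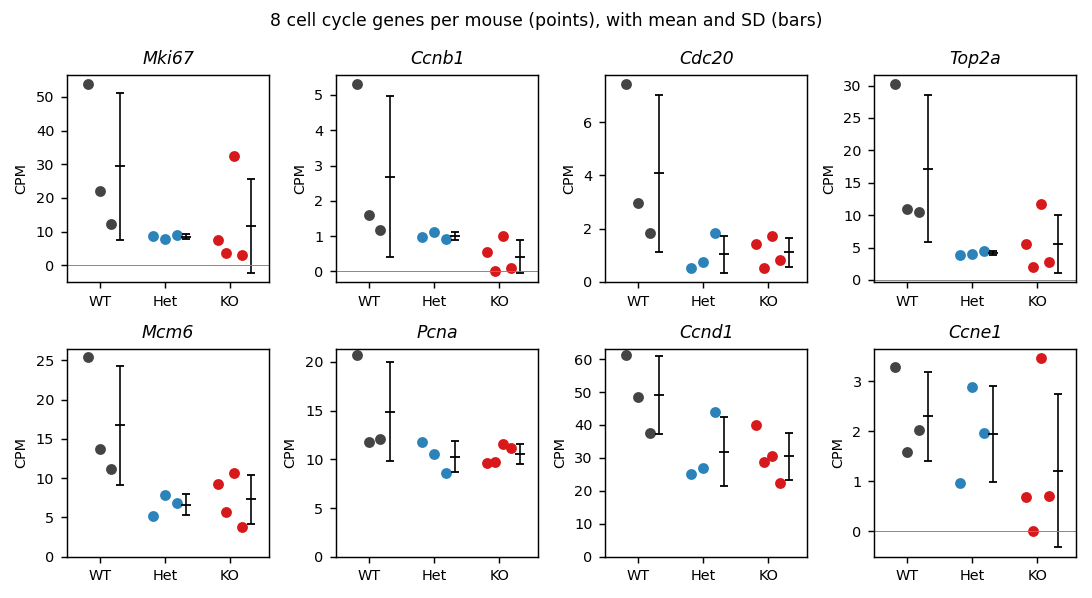
CPM of 8 genes in each mouse (points, vertical axis per panel) by genotype, with the group mean and SD beside the points. WT-2404 is the top WT point in every panel, KO-2124 is the top KO point of Mki67, Top2a, Ccnb1 and Cdc20, and Ccne1 shows groups that overlap throughout.

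Among the mitotic kinases and passenger proteins the medians were -1.66 in KO and -1.76 in Het. Plk1 and Aurkb, of the 4 genes, had an unadjusted p under 0.05 in each, against 13.9% and 11.6% of all tested genes. Aurkb was tested only through its WT counts, so its p supports nothing. Without WT-2404 no gene of the role had p under 0.05 and the medians were -0.87 and -0.98. Plk1, the Polo-like kinase of centrosome maturation and mitotic entry, was at 6.18, 2.90 and 1.53 CPM in WT, at 0.438, 1.02 and 1.47 CPM in Het and at 0.742, 0.527, 1.80 and 0.202 CPM in KO. Only KO-2124 reached into the WT range. Aurkb, the Aurora kinase of the chromosomal passenger complex, was at 5.36, 2.73 and 0.919 CPM in WT, at 0.263, 0.652 and 0.859 CPM in Het and at 0.371, 0, 1.94 and 0.404 CPM in KO. KO-2124 lay above WT-2067, and the rest were below WT. Birc5, which encodes survivin of the same complex, was at 7.21, 2.73 and 1.71 CPM in WT, at 1.05, 1.49 and 1.17 CPM in Het and at 0.865, 0.132, 4.38 and 0.404 CPM in KO. KO-2124 was above WT-1860 and WT-2067, and held 9.37 times the mean of the other KO mice. Aurka, the Aurora kinase of spindle poles, differed by -1.07 ± 0.64 in KO and -1.17 ± 0.71 in Het.

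The genes of the spindle checkpoint and of anaphase promotion had medians of -1.82 in KO and -1.91 in Het. In each, 4 of 5 had an unadjusted p under 0.05, against 13.9% and 11.6% of all tested genes. Ttk, at 1 to a few counts in several libraries, was the exception. Bub1 is among the 4 but was tested only through its WT counts, so its p supports nothing. Without WT-2404 the counts were 1 and 0 of 5, against 5.29% and 3.61% of all tested genes, and the medians -1.11 and -1.29. Bub1, a checkpoint kinase at kinetochores, was at 3.39, 1.59 and 1.29 CPM in WT, at 0.526, 0.745 and 0.430 CPM in Het and at 0.433, 0, 1.29 and 0.303 CPM in KO. KO-2124 matched WT-2067, and the other Het and KO mice were lower. Cdc20, the activator of the anaphase-promoting complex, was at 7.43, 2.95 and 1.84 CPM in WT, at 0.526, 0.745 and 1.84 CPM in Het and at 1.42, 0.527, 1.70 and 0.808 CPM in KO. Every KO mouse was below every WT mouse, and Het-2042 met WT-2067. The log2 fold change was -1.82 ± 0.56 in KO and -1.95 ± 0.62 in Het, with adjusted p in edgeR of 0.121 and 0.183. Ube2c, the ubiquitin-conjugating enzyme of that complex, was at 9.22, 5.79 and 2.51 CPM in WT, at 1.23, 1.40 and 1.96 CPM in Het and at 1.42, 0.132, 3.04 and 0.505 CPM in KO. Again KO-2124 alone overlapped WT. Bub1b, encoding the checkpoint protein BUBR1, was at -1.54 in KO and -1.64 in Het.

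The chromosome, spindle and cytokinesis machinery had medians of -1.64 in KO and -1.72 in Het, with 7 and 6 of 9 at an unadjusted p under 0.05, against 13.9% and 11.6% of all tested genes. Without WT-2404 the counts were 2 and 2 of 9, against 5.29% and 3.61% of all tested genes, and the medians -0.88 and -0.83. Top2a, the topoisomerase that untangles sister chromatids, was at 30.2, 10.9 and 10.4 CPM in WT, at 3.86, 4.01 and 4.48 CPM in Het and at 5.56, 1.98, 11.8 and 2.73 CPM in KO. Het mice lay in a narrow band below all WT mice, and KO-2124 was above WT-1860 and WT-2067. Cenpf, a kinetochore protein of G2 and mitosis, was at 8.33, 2.73 and 2.14 CPM in WT, at 1.32, 1.12 and 1.60 CPM in Het and at 1.30, 0.922, 4.01 and 0.808 CPM in KO. As for Top2a, KO-2124 was above both of the lower WT mice. Kif11, the motor that separates the spindle poles, was at 8.08, 2.51 and 2.88 CPM in WT, at 1.49, 0.839 and 2.88 CPM in Het and at 1.11, 0.263, 3.46 and 0.505 CPM in KO. Both Het and KO overlapped WT, each through 1 mouse.

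Tpx2, the spindle assembly factor that activates Aurora A, was at 11.4, 4.15 and 3.37 CPM in WT, at 1.05, 2.05 and 1.78 CPM in Het and at 1.61, 0.922, 3.00 and 0.808 CPM in KO. No Het or KO mouse reached WT, and its log2 fold changes were -1.94 ± 0.51 in KO and -1.97 ± 0.57 in Het, with unadjusted p of 0.00245 and 0.00444; the KO value was the smallest p of the 38. Nusap1, a spindle microtubule protein, was at 7.20, 3.06 and 0.980 CPM in WT, at 1.05, 1.86 and 1.41 CPM in Het and at 0.680, 0.132, 3.46 and 0.707 CPM in KO. WT-2067 was below all 3 Het mice. Prc1, the crosslinker of the central spindle, was at 12.8, 3.28 and 2.51 CPM in WT, at 1.32, 2.42 and 3.56 CPM in Het and at 1.98, 1.19, 3.46 and 1.01 CPM in KO. Het-2042 and KO-2124 were above WT-1860 and WT-2067. The motors Kif20a (-1.67 in KO and -1.92 in Het) and Kif23 (-1.75 and -1.79), which serve cytokinesis, and the kinetochore motor Cenpe (-1.24 and -1.45) complete the role.

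KO and Het mice were compared directly, since the difference between 2 and 1 floxed alleles also tests whether their distances from WT differ. None of the 38 genes passed in edgeR (0% of all tested genes) and none had an unadjusted p under 0.05, against 0.752% of all tested genes. The median log2 difference was 0.10, from -1.13 for Melk to 0.63 for Mcm5, with 25 genes higher and 13 lower in KO; of all tested genes 48.6% were lower. The groups were separate in 1 gene, Mcm7, with 8.16 to 10.1 CPM in KO and 5.96 to 6.69 CPM in Het (log2 difference 0.50 ± 0.25), against 2.46% of all tested genes. Without KO-2124 the median was -0.41 and 32 of 38 genes were lower in KO, against 54.1% of all tested genes. The standard errors reached 0.93 (Ttk); a p above the threshold does not show that KO and Het were alike.

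Within the KO group the libraries differed. KO-2070 was the lowest of the 10 libraries for 18 genes and KO-2126 for 12, while KO-2124 was the highest KO library for 30. The 38 genes summed to 473, 237 and 173 CPM in WT, 111, 125 and 144 CPM in Het and 141, 93.6, 209 and 91.0 CPM in KO. KO-2124 therefore lay between WT-2067 and WT-1860. The acinar markers held 61.6%, 66.6%, 54.6% and 67.7% of the gene counts in KO-2079, KO-2070, KO-2124 and KO-2126. The part of this composition in the spread among KO libraries was not tested. By single genes, the ratio of the highest to the lowest of the 10 libraries was 2.41 for Pcna, 2.71 for Ccnd1 and E2f1, and reached 70.0 for Ube2c, whose lowest library held 1 count.

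**Figure D4:**
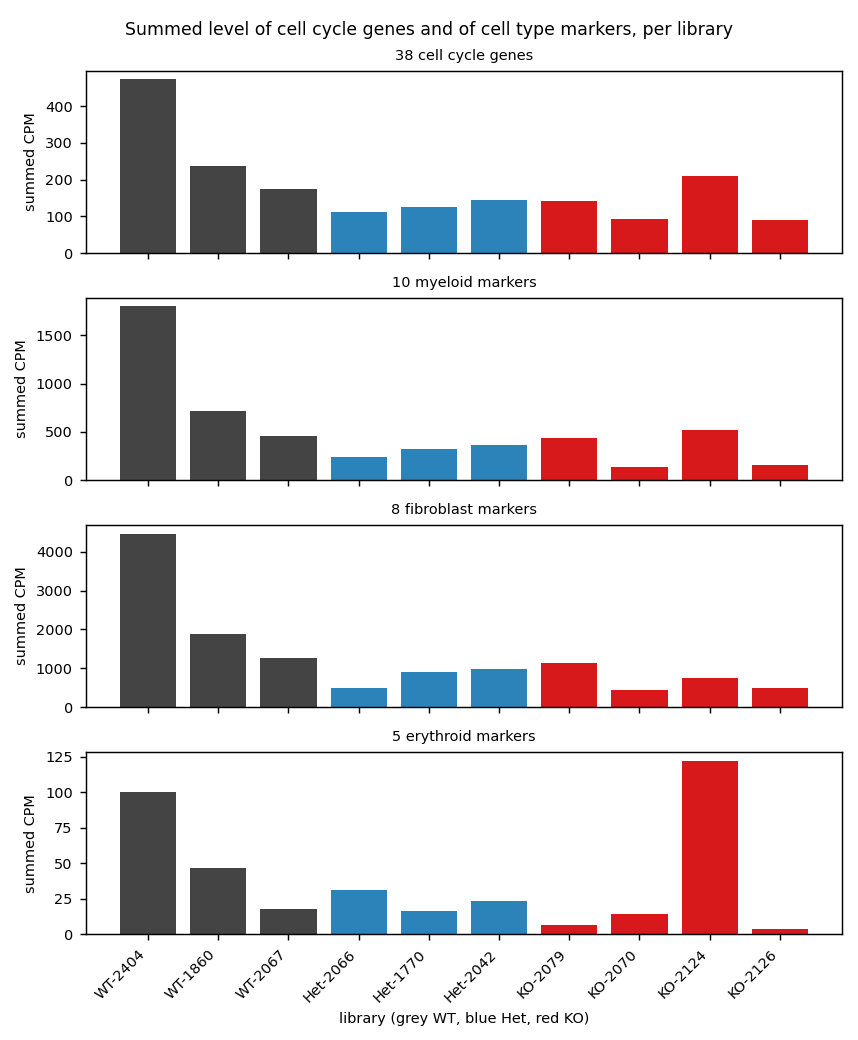
Summed CPM (vertical axis, from 0) of the 38 cell cycle genes and of 3 marker lists in each library, grey for WT, blue for Het and red for KO. WT-2404 has the tallest bar of the cell cycle, myeloid and fibroblast panels, and KO-2124 has the tallest bar of the erythroid panel.

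Most marker lists of other cell types were lower in Het and KO, as the cell cycle genes were, while acinar and islet markers and, by less, endothelial markers were higher. The 10 myeloid markers summed to 454 to 1798 CPM in WT, 240 to 368 CPM in Het and 136 to 516 CPM in KO; 10 of 10 were lower in both, with medians of -1.67 in KO and -1.70 in Het, and none was at 0 in any library. Without WT-2404 both myeloid medians were -0.89. With it, 10 of 10 had an unadjusted p under 0.05 in each comparison, against 13.9% and 11.6% of all tested genes lower in KO and Het. Without it, 1 did in KO and 0 in Het, against 5.29% and 3.61% of all tested genes. The 8 fibroblast markers summed to 1270 to 4464 CPM in WT, 507 to 989 CPM in Het and 444 to 1137 CPM in KO, with 7 of 8 lower in KO and 8 of 8 in Het. Fibroblast medians were -1.91 and -1.63, and -1.22 and -1.03 without WT-2404. Without that library 5 of 8 fibroblast markers were lower at an unadjusted p under 0.05 in edgeR in KO and 2 in Het, against the same 5.29% and 3.61%. The 8 ductal markers summed to 770 to 1253 CPM in WT, 367 to 637 CPM in Het and 376 to 627 CPM in KO. Of these, 6 of 8 were lower in each comparison, with medians of -1.28 in KO and -0.94 in Het (-1.02 and -0.76 without WT-2404). Without WT-2404, 4 ductal markers were lower at an unadjusted p under 0.05 in edgeR in KO and 2 in Het, against 5.29% and 3.61% of all tested genes. The 7 B cell markers summed to 13.7 to 37.2 CPM in WT, 6.61 to 9.12 CPM in Het and 1.79 to 23.4 CPM in KO, with 2 of 7 at 0 in Het-1770, KO-2079 and KO-2126. All 7 B cell markers were lower in both comparisons, with medians of -1.45 in KO and -1.59 in Het (-1.71 and -1.99 without WT-2404). All 6 T cell markers were lower in both, with medians of -0.80 and -1.71 (-0.73 and -1.85 without WT-2404). The 4 plasma cell markers tested were also lower in both, with medians of -1.55 and -1.21 (-1.16 and -1.04 without WT-2404). On the other side, 15 of 15 acinar markers were higher in both, with medians of 1.20 and 1.26 (0.62 and 0.72 without WT-2404), and 6 of 7 islet markers in KO and 7 of 7 in Het, with medians of 0.81 and 1.20 (0.30 and 0.72 without WT-2404). With library size alone as the scaling, 15 of 15 acinar markers were still higher in both, and 4 of 7 islet markers in KO and 6 of 7 in Het. Among the 15 acinar markers, Amy2a5 was at 0 in every WT library, so its direction was fixed under either scaling. The 5 erythroid markers summed to 18.2 to 100.3 CPM in WT, 16.8 to 31.0 CPM in Het and 4.04 to 122.3 CPM in KO, the last in KO-2124. Their medians were -0.48 in KO and -1.51 in Het, and 0.61 and -0.42 without WT-2404. The 8 gastric-type metaplasia markers had 7 of 8 lower in each comparison, with medians of -1.63 in KO and -0.24 in Het (-2.01 and -0.67 without WT-2404). Their sums were not lower, at 386 to 2509 CPM in WT, 1914 to 2859 CPM in Het and 1598 to 2060 CPM in KO. The sums of the 6 endothelial markers overlapped across groups, at 96.6 to 154 CPM in WT, 131 to 151 CPM in Het and 91.2 to 188 CPM in KO. By single markers, 5 of 6 were higher in KO and 6 of 6 in Het, with medians of 0.32 and 0.22. The part of these cells, and of the low acinar share of WT-2404, in the cell cycle differences was not tested.

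Further genes of the cell cycle were read from lists chosen by function. The genes named from each list are among the 2 with the lowest unadjusted p in edgeR in each direction in KO against WT. They were picked by these same data and are not typical of their lists. Of 45 other mitosis genes, 43 were lower in KO and 43 in Het, with medians of -1.53 and -1.64, and 24 had an unadjusted p under 0.05 in each, against 13.9% and 11.6% of all tested genes. Without WT-2404 those counts were 4 and 3 of 45, against 5.29% and 3.61% of all tested genes, and the medians -0.68 and -0.83. Nek2, a centrosome kinase, averaged 0.563 CPM in KO with an SD of 0.340, 1.18 CPM in Het with an SD of 0.34 and 2.61 CPM in WT with an SD of 1.37; here and below n is 4 for KO and 3 for the other groups. Ncaph, a condensin subunit, was at 0.966 ± 0.569 CPM in KO, 0.922 ± 0.425 in Het and 3.91 ± 2.30 in WT. The other 2 mitosis genes, Spc25 of the NDC80 complex and the securin gene Pttg1, stood at log2 differences of 0.17 and 0.03 in KO. Of 34 other replication genes tested, 27 were lower in KO and 29 in Het, with medians of -0.52 and -0.73 (-0.22 and -0.28 without WT-2404). Pole, the leading-strand polymerase, differed by -2.34 ± 0.48 in KO and -1.52 ± 0.50 in Het, and Tk1, a thymidine kinase, by -2.15 ± 0.58 and -1.78 ± 0.64. The origin recognition genes Orc3 (0.38 in KO) and Orc5 (0.29) were on the other side of 0.

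Of 25 other cyclins, kinases and transcription factors tested, 19 were lower in KO and 17 in Het, with medians of -0.34 and -0.38 (-0.14 and -0.24 without WT-2404). Cdk4, the partner of cyclin D1, was at 26.5 ± 1.8 CPM (SD) in KO, 27.3 ± 3.1 in Het and 37.3 ± 8.8 in WT. Cdc25a, the phosphatase that activates CDK2, was on the other side, at 28.5 ± 9.6 CPM in KO, 29.0 ± 10.2 in Het and 16.0 ± 7.4 in WT. The remaining picks of this list were Cks1b, with log2 differences of -0.86 in KO and -0.84 in Het, and Lin37, with 0.79 and 0.62. For Lin37 every KO and every Het mouse lay above every WT mouse. Of the 10 inhibitors and pocket proteins, 8 were lower in each comparison, with medians of -0.57 and -0.65. Without WT-2404, 6 were lower in KO and 7 in Het, with medians of -0.23 and -0.30. Cdkn1a, which encodes the inhibitor p21, was at 11.5 ± 3.8 CPM in KO, 11.3 ± 3.8 in Het and 33.5 ± 17.5 in WT, a log2 difference of -1.54 ± 0.38 in KO (adjusted p in edgeR 0.116). Cdkn2b, encoding p15, was at 1.91 ± 1.54 CPM in KO, 2.82 ± 1.19 in Het and 6.84 ± 3.18 in WT. Rbl2, the p130 pocket protein of resting cells, was higher, at 30.4 ± 5.5 CPM in KO, 24.2 ± 2.9 in Het and 18.4 ± 2.5 in WT, with no overlap between WT and either group. These higher values rest on the TMM scaling. With library size alone, the median of all genes moved to -1.17 in KO. The log2 difference in KO was then -0.54 for Rbl2, -0.20 for Cdc25a, -0.11 for Lin37, -0.84 for Orc3, -0.98 for Orc5, -0.97 for Spc25 and -1.10 for Pttg1. None of these genes passed an adjusted p of 0.05 in edgeR.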

How the data were processed

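The 10 libraries of total RNA from mouse pancreas pieces, 3 WT, 3 Het and 4 KO, were grouped by the genotype in their titles. The authors deposited whole-number read counts per gene in 1 table. Per the submitters' processing notes, DRAGEN, STAR, Cufflinks and mm10 were named, with no roles; the counting tool, annotation and strand setting are not given in the sources used here, so reads of overlapping genes on opposite strands cannot be told apart. The table's 2 summary lines were left out; reads outside genes came to 2.59% to 8.71%.

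Counts were fitted with edgeR 4.0.16 (R 4.3.3): TMM scaling, a low-count filter (minimum count 10, leaving 13688 genes), quasi-likelihood tests over all 10 libraries and Benjamini-Hochberg adjustment at 0.05. All 38 members passed the filter; Melk, Aurkb, Bub1 and Ttk passed only through WT libraries, and all 38 were also tested with at least 1 count required. DESeq2 1.42.0, library size alone, other filters and leaving out each library were alternatives. The fit was tested on counts simulated with the same spread for every gene and no library of deviating composition. That test does not show how the fit handles libraries such as WT-2404. Libraries of 1 group differed by far more than sampling noise (chi-square per degree of freedom at least 26.5). The members and lists were chosen with earlier results of these data known. Genes shown per mouse were picked by role, plus any whose fold change had the opposite sign to its role's median; other members are given by fold change. A further allele of all groups and 1 gene are not reported here.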

Additional observations from a re-analysis of the deposited data

Results flagged for a closer look

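Of 49 measures looked at among the 4 KO libraries (the 38 genes and the marker lists), 3 had 1 library far from the others by Dixon's criterion at 95%, where chance alone flags about 1 in 20, or 2.45 of 49. KO-2124 was the library in each. Mki67 was at 32.4 CPM there while the remaining KO mice spanned 2.93 to 7.60 CPM. Cenpf was at 4.01 CPM there and at 0.808 to 1.30 CPM in the others. The 5 erythroid markers summed to 122.3 CPM there and to 4.04 to 14.1 CPM in the others, with Slc4a1, the anion exchanger of red cells, at 73.4 CPM. KO-2124 also had the lowest acinar share of the KO libraries, at 54.6% of gene counts. Its myeloid, T cell and B cell sums were the highest of the KO group, at 516, 7.46 and 23.4 CPM. Its fibroblast and ductal sums, at 759 and 416 CPM, were below those of KO-2079, at 1137 and 627 CPM. The part of red cell precursors, or of any of these cells, in the Mki67 and Cenpf values was not tested.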

How the results depend on the processing

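With library size alone as the scaling, which moved the median of all genes to -1.17 (KO), -1.36 (Het) and 0.17 (KO against Het), 2835 genes and 30 of the 38 passed for KO (median -2.86), and 3125 genes and 30 of the 38 for Het (median -3.30). Ccnd1 in KO against Het was then 0.11. DESeq2 called 1009 genes and 14 of the 38 for KO, and 326 genes and 6 of the 38 for Het. Leaving out 1 library at a time gave 0 to 1933 genes, 0 to 16 of the 38 and medians of -2.14 to -0.78 for KO, and 0 to 1158 genes, 0 to 8 of the 38 and medians of -1.88 to -0.83 for Het; calls were made only when WT-2067 was left out.
Over the same omissions Rrm2 in KO ran from -0.73 to 0.038, the latter without WT-2404. In Het, Ccne1 ran from -0.64 to 0.12 (positive without WT-2404 and without Het-2066) and Mcm2 from -0.78 to 0.030 (positive without WT-2404). In KO against Het, Mki67 ran from -0.82 to 0.81 (negative without KO-2124) and Ccnd1 from -0.23 to 0.23 (positive without Het-2042 and without KO-2126). Leaving out WT-2404 and KO-2124 together, which was chosen after seeing the data, gave a Het median of -0.83, Ccne1 at 0.11 and Mcm2 at 0.028 in Het, and Mki67 at -0.81 in KO against Het. Of 651 single-gene values under the alternatives, 579 kept their direction and side of the threshold, 61 newly passed it and 11 changed sign; the causes were not tested. Without filtering beyond 1 count, and without acinar genes in the library size, 0 genes passed. No paired analysis was possible because the groups share no replicate number. Depth limits the scarce mitotic genes: 25 of the 38 had under 10 counts in some library, and Ccne1, Ccnb1, Melk, Aurkb and Bub1 had 0 in KO-2070. Counts of the 38 in this section include Melk, Aurkb, Bub1 and Ttk, which passed the filter only through WT libraries.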
